A study of Mus musculus with 16 samples.

Results

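The subunits of the mitochondrial respiratory chain and of the ATP synthase were followed in the aortic valve and the ascending aorta of 30-day-old mice. They were taken as every probe set with 1 gene whose symbol in the platform annotation starts with Nduf followed by a, b, c, s or v and a number, is Sdha to Sdhd, or starts with Uqcr, with Cox and a digit from 4 to 8, or with Atp5. This gave 164 of 45037 probe sets and 81 of 18193 genes. Complex I had 33 genes, complex II 4, complex III 8, complex IV 17 and complex V 17. Ndufa4 and Ndufa4l2 were kept apart, because NDUFA4 is now counted among the subunits of complex IV. No filter on low values was applied, so all 81 genes were tested.

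There were 4 groups of 4 arrays: valve from Eln+/- mice, valve from Eln+/+ mice, aorta from Eln+/- mice and aorta from Eln+/+ mice, all aged 30 days. Eln encodes elastin, and the Eln+/- mice are heterozygous for it. A valve piece held cusp, annulus and root, and RNA of each specimen was amplified and hybridised alone, without pooling. The labels give no strain, no sex and no link between a valve and an aorta, and the p-values below measure the spread between these arrays.

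The respiratory chain moves electrons from NADH, through complex I, and from succinate, through complex II, to complex III, cytochrome c and complex IV, which reduces oxygen. Complexes I, III and IV pump protons across the inner mitochondrial membrane, and complex V, the ATP synthase, uses the gradient to make ATP. Heart muscle is among the tissues richest in these complexes. Brown fat is rich in the respiratory chain and poor in ATP synthase. Several subunits of complex IV exist as a pair of genes, one active in heart and skeletal muscle and one active in most tissues, and subunit c of the ATP synthase is encoded by 3 genes whose mature proteins are the same.

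Each value is the log2 of a probe set's ratio on an array to about the median that probe set had over the 16 arrays. They hold no signal level, so no gene is compared with another in amount, and differences are those of log2 ratios. A gene is given by its probe set of highest SD over the arrays, and 48 of the 81 genes had more than 1. A gene "rose" or "fell" where limma gave an adjusted p under 0.05 (Benjamini-Hochberg over the 45037 probe sets). In whole pieces of tissue, fewer cells of a type and less RNA per cell cannot be told apart.

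The pieces differed in the RNA of cardiac muscle and brown adipocyte genes, and the source of this was not tested. The mean of 24 cardiac muscle genes was 1.97, 1.53, 2.38 and 1.61 in the valve Eln+/- arrays and 1.03, 0.51, 0.75 and 1.57 in the valve Eln+/+ arrays. In the aorta it was -3.24, -2.87, -0.90 and -3.55 in the Eln+/- arrays and -3.18, -1.11, -2.97 and -3.15 in the Eln+/+ arrays. Aorta Eln+/- 3 and aorta Eln+/+ 2 thus stood above the other aorta arrays in cardiac genes. The mean of 9 brown adipocyte genes was highest in aorta Eln+/- 2, at 1.93, and aorta Eln+/+ 4, at 2.27, and lay between -0.71 and 0.84 in the other 14 arrays. Ucp1, the uncoupling protein of brown fat, stood at 4.55 and 5.0 in those 2 arrays. It was also at 2.16, 2.49 and 1.26 in aorta Eln+/- 1, 3 and 4, at 3.20 in aorta Eln+/+ 1 and at 2.48 in valve Eln+/+ 3, so its signal was graded over the arrays. Eln was -1.27 in the valve and -0.42 in the aorta (Eln+/- minus Eln+/+), with an exact two-sided permutation p of 0.0571 in each tissue, where 0.0286 is the smallest that 4 against 4 arrays allow. In the valve the groups overlapped, since Eln+/- 4 stood at -0.81 and Eln+/+ 4 at -1.19. The other Eln probe set gave -0.61 in the valve and -0.22 in the aorta, with exact two-sided permutation p-values of 0.143 and 0.0286. Xist lay between -0.06 and 0.32 in the 8 Eln+/- arrays and at -6.64 in 6 of the 8 Eln+/+ arrays, in which Y-linked genes were high. The exceptions were valve Eln+/+ 2, at 0.21, and aorta Eln+/+ 4, at 0.10. Sex-linked signal therefore ran largely with genotype.

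Promoters of the isoform genes on which the results turn are shown so that the sequence of the tissue-restricted genes can be set beside that of their partners. Each runs 250 bases before to 50 bases after the gene's start in RefSeq, on the gene's own strand, in the build GRCm38.p6, from 5′ to 3′. Atp5g1, Atp5g3 and Atp5g2 encode subunit c of complex V, Cox7a1 and Cox8b are muscle-type subunits of complex IV, and Cox6a1 and Cox8a are forms active in most tissues. The windows lie at chr11:96075582-96075881 (Atp5g1, minus strand), chr2:73911277-73911576 (Atp5g3, minus), chr15:102670998-102671297 (Atp5g2, minus), chr7:30183921-30184220 (Cox7a1, plus), chr7:140900397-140900696 (Cox8b, minus), chr5:115348909-115349208 (Cox6a1, minus) and chr19:7217567-7217866 (Cox8a, minus). Capitals mark matches, on either strand, to the NRF1 core GCATGCG, the oestrogen-related receptor element AAGGTCA, the GABP element CCGGAAG, the YY1 element AAGATGG, the E-box CANNTG and the CCAAT box.
Atp5g1: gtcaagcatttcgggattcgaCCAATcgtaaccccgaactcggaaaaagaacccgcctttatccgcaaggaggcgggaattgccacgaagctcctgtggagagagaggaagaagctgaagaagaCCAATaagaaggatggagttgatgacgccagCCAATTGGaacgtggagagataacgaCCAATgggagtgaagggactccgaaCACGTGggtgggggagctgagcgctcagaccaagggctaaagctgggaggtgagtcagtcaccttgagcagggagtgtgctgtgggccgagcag
Atp5g3: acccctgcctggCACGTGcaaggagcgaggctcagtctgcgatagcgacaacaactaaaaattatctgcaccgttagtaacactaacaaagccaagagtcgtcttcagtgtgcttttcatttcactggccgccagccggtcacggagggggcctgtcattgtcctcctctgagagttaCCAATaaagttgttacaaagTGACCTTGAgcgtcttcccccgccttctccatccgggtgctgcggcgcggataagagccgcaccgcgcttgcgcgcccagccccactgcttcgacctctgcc
Atp5g2: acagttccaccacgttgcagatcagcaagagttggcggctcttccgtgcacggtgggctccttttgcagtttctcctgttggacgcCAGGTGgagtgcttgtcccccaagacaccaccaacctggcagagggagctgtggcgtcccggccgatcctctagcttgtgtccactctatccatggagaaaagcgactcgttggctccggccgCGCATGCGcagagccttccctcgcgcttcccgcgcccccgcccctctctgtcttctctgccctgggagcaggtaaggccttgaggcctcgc
Cox7a1: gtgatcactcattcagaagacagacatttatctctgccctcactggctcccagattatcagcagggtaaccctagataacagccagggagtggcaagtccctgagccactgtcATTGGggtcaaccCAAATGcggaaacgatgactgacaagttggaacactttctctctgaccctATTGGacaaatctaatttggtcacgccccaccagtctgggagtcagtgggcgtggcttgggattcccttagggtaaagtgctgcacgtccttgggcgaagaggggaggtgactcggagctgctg
Cox8b: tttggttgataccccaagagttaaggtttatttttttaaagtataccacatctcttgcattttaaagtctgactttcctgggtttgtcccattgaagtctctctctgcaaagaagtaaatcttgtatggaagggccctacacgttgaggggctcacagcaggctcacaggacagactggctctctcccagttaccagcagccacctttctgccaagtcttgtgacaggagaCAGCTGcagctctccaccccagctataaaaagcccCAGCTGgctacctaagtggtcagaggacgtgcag
Cox6a1: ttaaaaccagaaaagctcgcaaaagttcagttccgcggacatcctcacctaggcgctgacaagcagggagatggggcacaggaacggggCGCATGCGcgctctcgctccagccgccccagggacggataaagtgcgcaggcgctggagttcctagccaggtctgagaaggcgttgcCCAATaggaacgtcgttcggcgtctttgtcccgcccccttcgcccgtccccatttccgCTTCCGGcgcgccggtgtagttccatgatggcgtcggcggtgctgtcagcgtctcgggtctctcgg
Cox8a: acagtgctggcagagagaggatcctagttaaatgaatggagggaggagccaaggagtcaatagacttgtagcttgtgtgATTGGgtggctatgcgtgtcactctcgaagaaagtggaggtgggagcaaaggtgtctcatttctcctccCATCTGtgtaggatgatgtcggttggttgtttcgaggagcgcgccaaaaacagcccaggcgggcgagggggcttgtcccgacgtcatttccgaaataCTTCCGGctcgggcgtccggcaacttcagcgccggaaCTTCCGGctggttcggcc

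Of the 81 genes, 66 had a promoter in the table, with 71 windows. The NRF1 core matched 10 of the 71 windows (14.1%), against 3.58% of all 32851 windows of that length. The GABP element matched 17 (23.9%, against 8.86% of all windows), the YY1 element 10 (14.1%, against 6.34%) and the oestrogen-related receptor element 8 (11.3%, against 4.72%). The CCAAT box matched 29 (40.8%, against 37.4%), the E-box 47 (66.2%, against 72.3%) and the MEF2 motif 0 (0%, against 3.19%). Among the 7 windows shown, the NRF1 core was in Cox6a1 and Atp5g2 as 2 overlapping matches on opposite strands, and the GABP element was in Cox6a1 and Cox8a. The windows of Atp5g1, Cox7a1 and Cox8b held E-boxes and no match to the NRF1, GABP, YY1 or oestrogen-related receptor elements. The same held for Cox7a2, the partner of Cox7a1 active in most tissues, whose window is not shown and had 1 E-box. Cox6a2 had no window, so muscle forms and their partners are not compared as sets. The window of Atp5g3 held the oestrogen-related receptor element with TC before it, at positions -52 to -44 from the start, which overlaps the shorter form. In Atp5g1, 2 CCAAT boxes on opposite strands overlap each other and an E-box. These matches describe letters in a window and nothing about binding.

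In Eln+/- mice the subunit genes were higher in the valve than in the aorta, and the rise ran through complexes I, III, IV and V. Of the 81 genes, 43 rose and 0 fell, against 4.41% of all 18193 genes that rose and 2.65% that fell. Differences above 0 were found in 77 of 81, against 49.6% of all genes, and the 4 valve arrays all lay above the 4 aorta arrays for 44 genes, against 6.97% of all genes. The median log2 difference was 1.01 over the 81 genes and -0.00302 over all genes. The strongest rise among them was that of Cox6a2, the heart and skeletal muscle form of complex IV subunit 6A, at 14.2-fold. The rise reached 14 of 17 genes in complex V, 16 of 33 in complex I, 4 of 8 in complex III, 8 of 17 in complex IV and 0 of 4 in complex II. The medians were 1.10 for complex V, 1.01 for complex I, 1.09 for complex III, 0.78 for complex IV and 0.94 for complex II, so complex II lay close to the others in size. Genes of cardiac muscle rose too, 24 of 24, at a median of 4.45, and of 12 smooth muscle genes 5 fell and 1 rose, the muscle intermediate filament gene Des, at 2.73 (limma adjusted p = 0.000264). Their part in the subunit values was not tested. Counted by probe set, 67 of 164 rose and 0 fell (3.27% of all probe sets rose), with a median of 0.80.

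The count of 43 genes (67 probe sets) moved with single arrays, and so did the share of all probe sets that rose, 3.27% with all arrays. Without valve Eln+/- 3 the count was 14 genes (19 probe sets), with 1.99% of all probe sets rising. It was 16 genes (21 probe sets) without aorta Eln+/- 1 and likewise without aorta Eln+/- 4, with 2.18% and 2.21% of all. Without aorta Eln+/- 3 it was 23 genes (35 probe sets), with 2.53% of all, and without valve Eln+/- 1 it was 25 genes (36 probe sets), with 2.25%. Without aorta Eln+/- 2, rich in brown adipocyte genes, it was 62 genes (114 probe sets), with 3.97% of all. The median over the genes stayed between 0.84 and 1.19 when single Eln+/- arrays were left out.

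**Figure D1:**
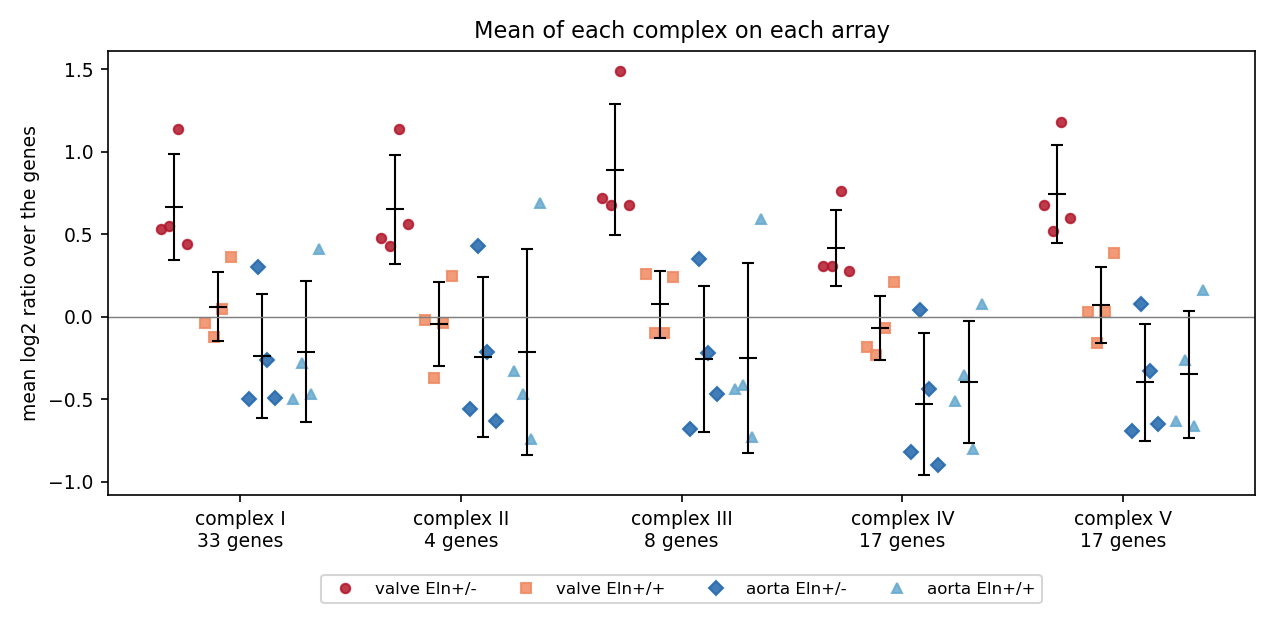
Mean log2 ratio of the genes of each complex (vertical axis) on each array, for the 5 complexes, with points for arrays and black bars for the group mean ± SD (n = 4). The valve Eln+/- points lie above 0 in every complex, with replicate 3 highest, while aorta Eln+/- 2 and aorta Eln+/+ 4 lie above the other aorta arrays.

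By array, the mean over all 81 genes was 0.53, 0.49, 1.09 and 0.47 in valve Eln+/-, and -0.62, 0.21, -0.31 and -0.61 in aorta Eln+/-. It was -0.02, -0.16, 0.00 and 0.32 in valve Eln+/+, and -0.51, -0.31, -0.62 and 0.31 in aorta Eln+/+. The valve Eln+/- arrays did not overlap with either the aorta Eln+/- or the valve Eln+/+ arrays, whereas valve Eln+/+ overlapped with aorta Eln+/+ through aorta Eln+/+ 4.

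Complex I takes electrons from NADH. Its genes of lowest p in this comparison were Ndufb10, Ndufb7 and Ndufa5, accessory subunits that surround the catalytic core. Ndufa5 had log2 ratios of 0.69, 0.56, 1.39 and 0.83 in valve Eln+/-, against -1.09, 0.06, -0.74 and -1.39 in aorta Eln+/-. All 4 valve arrays lay above all 4 aorta arrays, and aorta Eln+/- 2 came nearest. Ndufa5 rose by 1.66 ± 0.31 (SE), which is 3.16-fold (limma adjusted p = 0.00532). Ndufb10 rose by 1.16 ± 0.20 (2.23-fold, limma adjusted p = 0.00324) and Ndufb7 by 1.14 ± 0.21 (2.21-fold, limma adjusted p = 0.00398). Among the core subunits, Ndufv1, which binds NADH, had 0.82, 0.44, 1.45 and 0.80 in valve Eln+/-, against -1.06, 0.03, -0.48 and -1.32 in aorta Eln+/-. Ndufv1 showed no overlap of the groups and rose by 1.59 ± 0.34 (3-fold, limma adjusted p = 0.0111). Ndufs1, the large iron-sulfur subunit, was at 1.10 ± 0.35 with an adjusted p of 0.0792 and did not pass. Ndufb4 was the 1 complex I gene on the other side, at -0.74 ± 0.44 (adjusted p = 0.399), and Ndufb1 stood at 0.08. Ndufa4, kept apart, rose by 0.92 ± 0.25 (adjusted p = 0.0409), and its paralogue Ndufa4l2 was at 0.34 (adjusted p = 0.296).

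Complex II oxidises succinate and is also an enzyme of the citric acid cycle. None of its 4 genes passed. Sdhb, the iron-sulfur subunit, had 0.68, 0.58, 1.29 and 0.71 in valve Eln+/-, against -0.45, 0.53, -0.23 and -0.87 in aorta Eln+/-. The groups did not overlap, with aorta Eln+/- 2 just below the lowest valve array, and the difference was 1.07 ± 0.31 with an adjusted p of 0.054 in limma. Sdhd and Sdhc, the membrane anchors, stood at 1.12 and 0.80 (adjusted p = 0.091 and adjusted p = 0.0777), and the flavoprotein gene Sdha at 0.58 (adjusted p = 0.396). Without the 2 aorta arrays rich in brown adipocyte genes the median of the 4 was 1.13.

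Complex III passes electrons from ubiquinol to cytochrome c. Uqcrfs1, its Rieske iron-sulfur protein, had 0.91, 0.56, 1.52 and 0.83 in valve Eln+/-, against -1.01, 0.40, -0.41 and -1.20 in aorta Eln+/-. The groups did not overlap, and aorta Eln+/- 2 again came nearest to the valve arrays. Uqcrfs1 rose by 1.51 ± 0.37 (2.85-fold, limma adjusted p = 0.0236). Uqcr11, a small subunit, rose by 1.31 ± 0.32, Uqcrc1, a core protein, by 1.01 ± 0.28, and Uqcrh, the hinge protein, by 0.98 ± 0.27, with adjusted p of 0.0255, 0.0483 and 0.0426. Uqcrc2, the other core protein, was at 1.20 ± 0.35 (adjusted p = 0.0553). For Uqcrq the probe sets disagreed: that of highest SD was at 1.16 (adjusted p = 0.203), and another with the suffix _s_at rose by 1.57 (adjusted p = 0.0408), while 2 more were at -0.20 and -0.06.

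Complex V had the highest share of genes past the threshold. Atp5b, the catalytic beta subunit, had 0.95, 0.49, 1.29 and 0.86 in valve Eln+/-, against -1.02, -0.11, -0.38 and -0.95 in aorta Eln+/-. No valve array reached down to an aorta array, and Atp5b rose by 1.51 ± 0.31 (2.85-fold, limma adjusted p = 0.00911). Atp5a1, the alpha subunit, rose by 1.17 ± 0.26 (2.25-fold, limma adjusted p = 0.0134). Atp5c1, the gamma subunit of the central stalk, rose by 1.10 ± 0.20 (limma adjusted p = 0.00439), but its other probe set was at -0.02. Atp5j, of the peripheral stalk, rose by 1.10 ± 0.18 (limma adjusted p = 0.00177).

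The 3 genes of subunit c, which forms the rotating ring, differed. Atp5g1 had 1.08, 1.05, 2.04 and 1.05 in valve Eln+/-, against -1.47, -0.94, -0.87 and -1.10 in aorta Eln+/-. The gap between the groups was wide, and aorta Eln+/- 2, high for most other subunits, lay among the other aorta arrays. Atp5g1 rose by 2.40 ± 0.32 (5.28-fold, limma adjusted p = 0.000468), although its second probe set stood at 0.24 (adjusted p = 0.661). Atp5g3 had 0.70, 0.63, 1.10 and 0.85 in valve Eln+/-, against -0.45, -0.61, -0.25 and -0.41 in aorta Eln+/-. Here too aorta Eln+/- 2 did not stand above the other aorta arrays, and it was the lowest. Atp5g3 rose by 1.25 ± 0.18 (2.38-fold, limma adjusted p = 0.000749). Atp5g2 had 0.18, -0.36, 0.22 and -0.20 in valve Eln+/-, against 0.44, -0.52, -0.00 and -0.17 in aorta Eln+/-. These groups overlapped fully, the difference was 0.02 ± 0.23, and its sign changed with several settings, which are given with the limits of the processing.

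**Figure D2:**
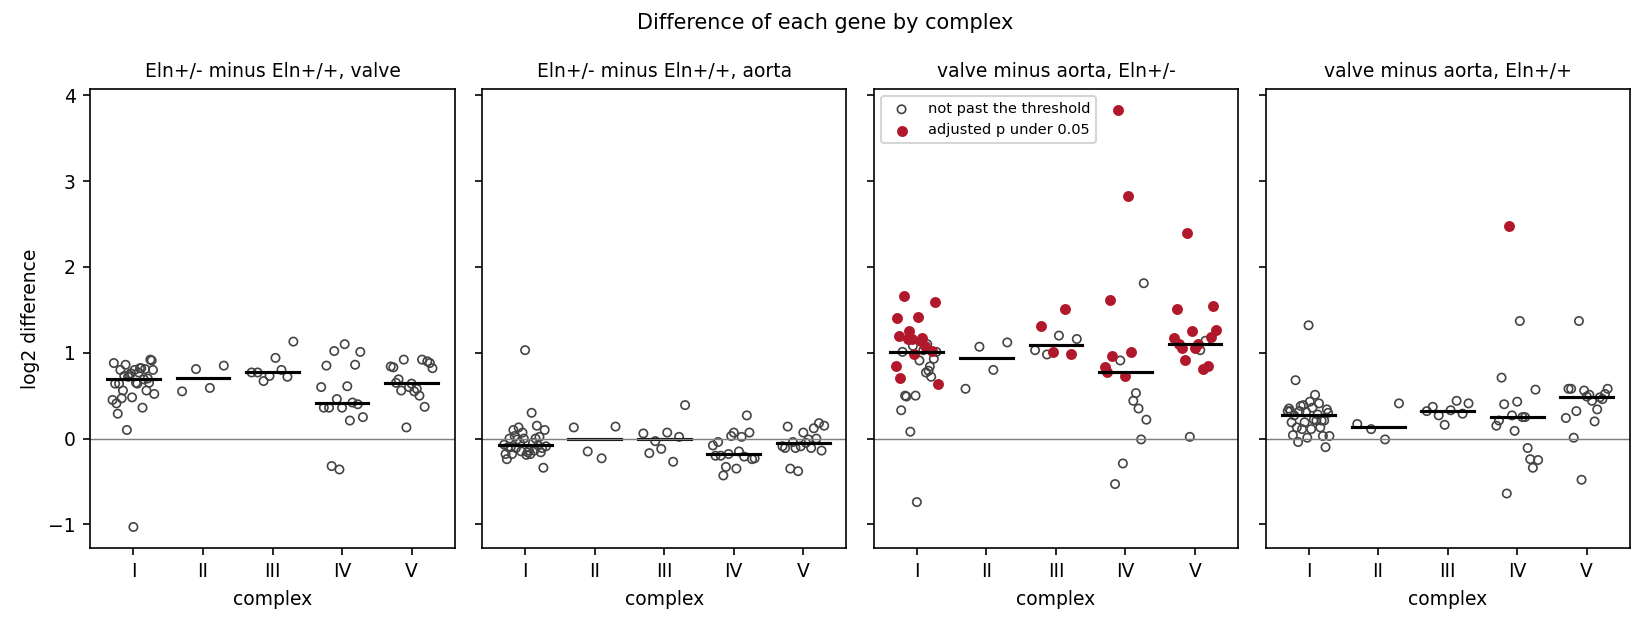
Log2 difference of each gene (vertical axis) by complex in the 4 comparisons, without Ndufa4 and Ndufa4l2, with filled red points where the adjusted p was under 0.05, open points otherwise and black lines for the median of a complex. Filled points are frequent for valve minus aorta in Eln+/- mice, while in Eln+/+ mice only Cox6a2 is filled, and the valve genotype differences lie mostly above 0 without a filled point.

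Complex IV held the widest range of differences, from -0.53 for Cox6a1 to 3.83 for Cox6a2. Cox6a2 had 1.08, 1.26, 2.16 and 1.5 in valve Eln+/-, against -2.88, -2.87, -1.01 and -2.57 in aorta Eln+/-. All valve arrays lay above all aorta arrays, and aorta Eln+/- 3, the aorta array of that group richest in cardiac genes, was the highest of the aorta. Cox6a2 rose by 3.83 ± 0.54 (limma adjusted p = 0.000704), and its other probe set rose by 3.65. Its partner Cox6a1 had -0.85, -0.13, -0.14 and -0.52 in valve Eln+/-, against 0.02, 0.84, -0.38 and -0.02 in aorta Eln+/-. Those groups overlapped, and the difference was -0.53 ± 0.28 (adjusted p = 0.337).

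Cox7a1, the muscle form of subunit 7A, had 1.26, 1.09, 2.02 and 1.18 in valve Eln+/-, against -2.44, 0.63, -0.74 and -3.19 in aorta Eln+/-. The aorta arrays spread widely, with Eln+/- 2 at the top and Eln+/- 4 at the bottom, yet did not reach the valve arrays. Cox7a1 rose by 2.83 ± 0.77 (7.09-fold, limma adjusted p = 0.0425), and the call rested on single arrays. It held without aorta Eln+/- 2, without aorta Eln+/+ 2, 3 or 4 and without valve Eln+/+ 4. It was lost without any 1 of the other 11 arrays, where the adjusted p ran from 0.0519 to 0.132. Cox7a2, the form active in most tissues, rose by 1.01 ± 0.28 (limma adjusted p = 0.0467).

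Cox8b, the muscle form of subunit 8, had 0.97, 0.72, 1.69 and 0.86 in valve Eln+/-, against -1.52, 1.26, -0.36 and -2.39 in aorta Eln+/-. Aorta Eln+/- 2 lay among the valve arrays and the other aorta arrays below them, so the groups overlapped, and the difference was 1.81 ± 0.80 (adjusted p = 0.227). Cox8a, its partner, had -0.06, 0.12, 0.51 and 0.03 in valve Eln+/-, against -0.00, -0.10, 0.23 and 0.51 in aorta Eln+/-, a difference of -0.01. These groups overlapped.

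Of the subunits without a muscle form, Cox4i1 had 0.54, 0.42, 1.02 and 0.51 in valve Eln+/-, against -0.44, 0.17, -0.22 and -0.36 in aorta Eln+/-. The groups did not overlap, and Cox4i1, the main form of subunit 4, rose by 0.83 ± 0.21 (limma adjusted p = 0.0267). Its paralogue Cox4i2, known from lung, rose by 0.78 ± 0.17 (limma adjusted p = 0.0116), and Cox5a by 1.61 ± 0.39 (3.05-fold, limma adjusted p = 0.0237). Cox6b2, known from testis, was at -0.29 (adjusted p = 0.536).

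**Figure D3:**
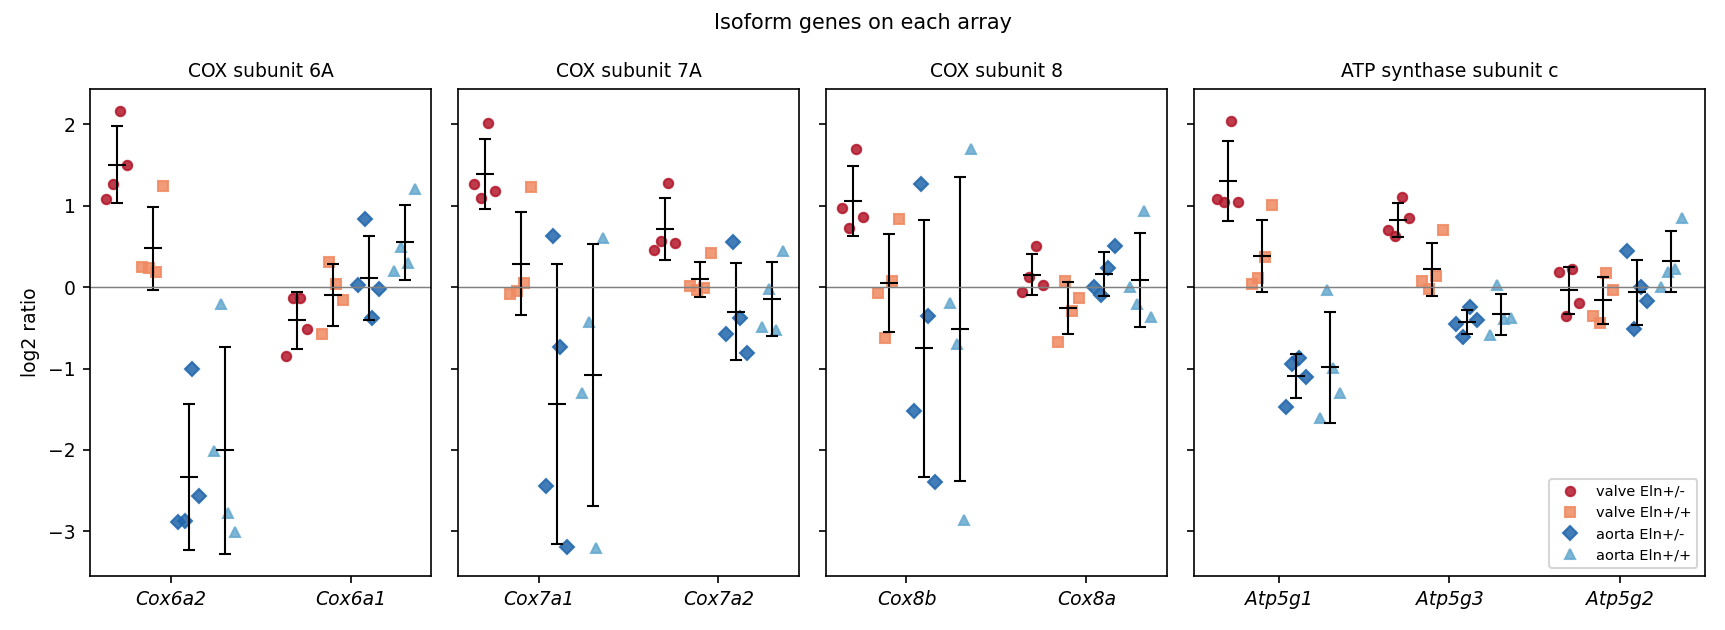
Log2 ratios (vertical axis) of the isoform genes of complex IV subunits 6A, 7A and 8 and of ATP synthase subunit c on each array, with points for arrays and black bars for the group mean ± SD (n = 4). Cox6a2 and Atp5g1 separate valve from aorta in Eln+/- mice, Cox7a1 and Cox8b spread widely in the aorta, and Cox6a1, Cox8a and Atp5g2 overlap between tissues in Eln+/- mice.

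In Eln+/+ mice the same comparison of tissues gave smaller values. Of the 81 genes 1 rose, Cox6a2, and 0 fell, against 1.19% of all genes that rose and 0.126% that fell. By probe set 2 rose, against 0.848% of all probe sets. The groups did not overlap, with the valve higher, for 3 genes, against 4.19% of all genes. The median over the subunit genes was 0.30, against -0.05 over all genes, and 72 of 81 stood above 0, against 42.7% of all genes. The medians were 0.27 for complex I, 0.14 for complex II, 0.32 for complex III, 0.25 for complex IV and 0.48 for complex V. Of the 24 genes of cardiac muscle, 17 passed as higher, and their median was 3.36. Cox6a2 had 0.25, 0.23, 0.18 and 1.24 in valve Eln+/+, against -2.01, -0.21, -2.78 and -3.01 in aorta Eln+/+. Valve Eln+/+ 4 stood above the other valve arrays, and aorta Eln+/+ 2, the one richest in cardiac genes in its group, above the other aorta arrays, without overlap of the groups. Cox6a2 rose by 2.48 ± 0.54 (5.58-fold, limma adjusted p = 0.038), and its other probe set by 2.52 (limma adjusted p = 0.0134). The call of the first was lost without aorta Eln+/+ 1, 3 or 4 or any 1 of the valve Eln+/+ arrays, where the adjusted p ran from 0.0586 to 0.137. It was lost too without valve Eln+/- 1, 2 or 4, which enter through the shared spread (adjusted p = 0.0504 to 0.0532).

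Atp5g1 had 0.04, 0.11, 0.37 and 1.01 in valve Eln+/+, against -1.61, -0.04, -0.99 and -1.30 in aorta Eln+/+. The groups did not overlap, though aorta Eln+/+ 2 came close, and the difference of 1.37 ± 0.32 missed the threshold (limma adjusted p = 0.0561). Without aorta Eln+/+ 2 it was 1.68, with an adjusted p of 0.00823, and without valve Eln+/- 3 the adjusted p was 0.0355. In the other 14 fits that left out 1 array Atp5g1 did not pass. Its second probe set had the other sign, with means of -0.22 in valve Eln+/+ and 0.01 in aorta Eln+/+. The mean over its probe sets gave a difference of 0.56 (limma adjusted p = 0.303). Cox7a1 stood at 1.37 ± 0.77 and Cox8b at 0.57 ± 0.80 (adjusted p = 0.515 and adjusted p = 0.831), with aorta Eln+/+ 4 at 0.60 and 1.69. Ndufa5 was at 0.68 ± 0.31 and Uqcrfs1 at 0.44 ± 0.37 (adjusted p = 0.41 and adjusted p = 0.686). Cox6a1 was at -0.64 ± 0.28 (adjusted p = 0.382), and Ndufb4 at 1.32 ± 0.44 (adjusted p = 0.218), with the sign opposite to that in Eln+/- mice.

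The question of genotype in the valve concerned whether the loss of 1 elastin allele changed these genes in the leaflets and root. None of the 81 genes passed, and none of all 18193 genes did. The smallest adjusted p among the subunit probe sets was 0.419. The valve Eln+/- arrays are also those of the tissue comparison above, so the values of the comparisons are not independent. The values nevertheless leaned one way: 78 of 81 genes were above 0, against 55.0% of all genes, with a median of 0.65 against 0.03. At an unadjusted p under 0.05, 51 genes were higher (5.86% of all genes) and 1 lower (3.62%). For 31 genes the 4 Eln+/- arrays all lay above the 4 Eln+/+ arrays, against 3.51% of all genes, and for 0 they all lay below, against 1.82%. The genes moved together by array, so these counts rest on the same few arrays and are not separate observations. The mean over the 81 genes was 1.09 in valve Eln+/- 3, against 0.47 to 0.53 in the other valve Eln+/- arrays. That array was the highest in every complex. The medians were 0.69 for complex I, 0.70 for complex II, 0.77 for complex III, 0.42 for complex IV and 0.65 for complex V.

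Ndufb10, of lowest p, had 0.74, 0.72, 1.15 and 0.74 in valve Eln+/-, against 0.00, -0.00, 0.16 and 0.33 in valve Eln+/+. The groups did not overlap, and the difference was 0.72 ± 0.20 (1.64-fold, limma adjusted p = 0.419). Sdhb had 0.68, 0.58, 1.29 and 0.71 in valve Eln+/-, against -0.06, -0.29, 0.06 and 0.31 in valve Eln+/+, also without overlap, a difference of 0.81 ± 0.31 (adjusted p = 0.479). Cox4i1 had 0.54, 0.42, 1.02 and 0.51 in valve Eln+/-, against 0.03, -0.17, -0.03 and 0.27 in valve Eln+/+, a difference of 0.60 ± 0.21 (adjusted p = 0.434). In each of these genes valve Eln+/- 3 was the highest and valve Eln+/+ 4 the highest of its group.

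Other subunits lay in the same range. Uqcrc2 stood at 0.94 ± 0.35 and Uqcrh at 0.72 ± 0.27 in complex III, Atp5a1 at 0.84 ± 0.26 and Atp5b at 0.83 ± 0.31 in complex V, and Ndufv1 at 0.91 ± 0.34 in complex I, with adjusted p between 0.423 and 0.465. The muscle isoforms were at 1.02 ± 0.54 for Cox6a2, 1.10 ± 0.77 for Cox7a1 and 1.01 ± 0.80 for Cox8b, with overlapping groups in each (adjusted p = 0.618, adjusted p = 0.726 and adjusted p = 0.764). Of the genes of subunit c, Atp5g1 was at 0.92 ± 0.32 without overlap of the groups, Atp5g3 at 0.60 ± 0.18 with overlap, and Atp5g2 at 0.13 ± 0.23 (adjusted p = 0.434, adjusted p = 0.42 and adjusted p = 0.92). The 3 genes below 0 were Ndufb4 at -1.03 ± 0.44 (adjusted p = 0.526), Cox6b2 at -0.36 and Cox6a1 at -0.32. Ndufb4 had -1.48, -0.07, 0.55 and -0.65 in valve Eln+/-, against 1.03, 0.70, 0.78 and -0.03 in valve Eln+/+. Its values scattered over more than 2 log2 units within valve Eln+/-, and it has 1 probe set.

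Cardiac muscle genes moved with these values. All 24 were above 0 in the same comparison, against 55.0% of all genes, with a median of 0.89. Of 12 smooth muscle genes 11 were below 0, with a median of -0.85. Among the 8 valve arrays, Eln+/- 3 was highest in both the cardiac mean and the subunit mean, and Eln+/+ 2 lowest in both. Valve Eln+/+ 4, with a cardiac mean of 1.57 inside the Eln+/- range of 1.53 to 2.38, had a subunit mean of 0.32, against 0.47 to 1.09 in valve Eln+/-. When the mean of the cardiac genes entered as a covariate in the 8 valve arrays, the median over the subunit genes was 0.09. Over all probe sets it was 0.01. The medians were then 0.08 for complex I, 0.13 for complex II, 0.16 for complex III, 0.07 for complex IV and 0.10 for complex V. The cardiac mean itself ran largely with genotype, since only Eln+/+ 4 reached the Eln+/- range. With 5 residual degrees of freedom this fit cannot separate heart muscle content from genotype. With sex-linked signal as a covariate the median was 0.45 over all arrays and 0.85 over the valve arrays alone. Among the valve arrays only Eln+/+ 2 broke the match of Xist with genotype. The value of 0.85 therefore rests on that array, and it cannot separate sex from genotype. In the fit over all arrays aorta Eln+/+ 4 broke the match too. It was the array highest in brown adipocyte genes, at 2.27, with a subunit mean of 0.31, against -0.62 to -0.31 in the other aorta Eln+/+ arrays. The value of 0.45 thus rests on valve Eln+/+ 2 and aorta Eln+/+ 4 and cannot separate sex from genotype either. What part heart muscle content or sex had in the lean was not tested.

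**Figure D4:**
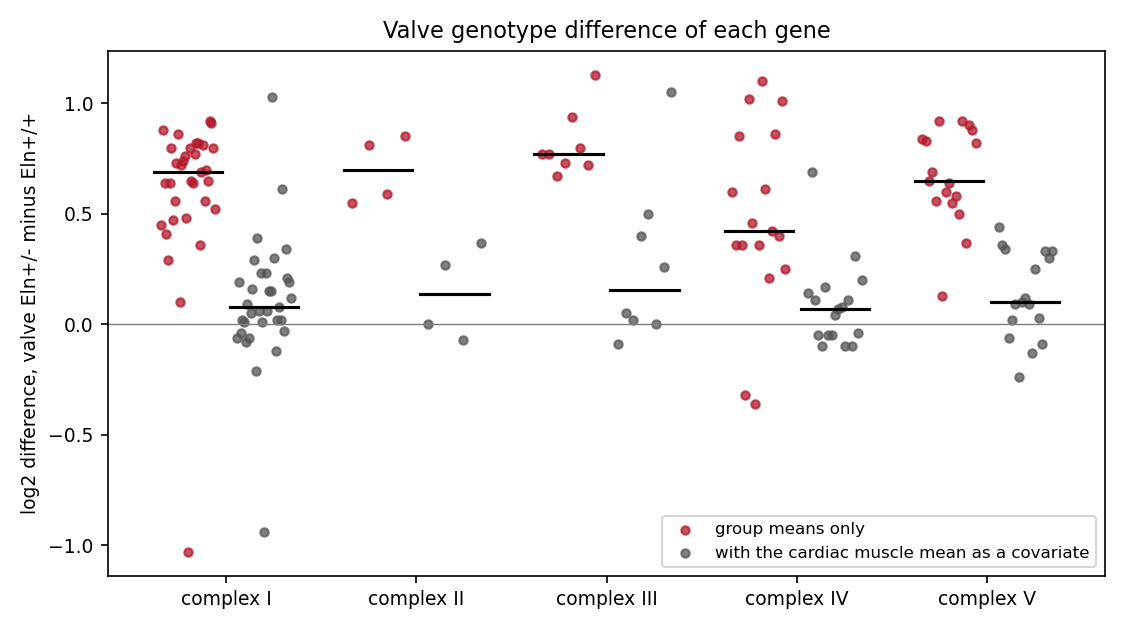
Log2 difference of each gene in the valve, Eln+/- minus Eln+/+ (vertical axis), by complex, from group means only (red) and after adding the mean of cardiac genes as a covariate (grey), with black lines for medians and without Ndufa4 and Ndufa4l2. The medians of the 5 complexes lie between 0.42 and 0.77 from group means and between 0.07 and 0.16 with the covariate. The covariate itself ran largely with genotype.

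In the aorta no subunit gene passed for genotype either, and none of all 18193 genes did. The median was -0.08 over the 81 genes, against -0.02 over all genes, and 26 of 81 were above 0, against 47.3% of all genes. At an unadjusted p under 0.05, 1 gene was higher (3.30% of all genes) and 0 lower (2.38%). No gene had groups without overlap, against 1.37% of all genes higher and 1.41% lower. The medians were -0.08 for complex I, -0.01 for complex II, -0.00 for complex III, -0.18 for complex IV and -0.05 for complex V. Ndufb4, of lowest p, had 1.28, 0.13, -0.23 and 0.12 in aorta Eln+/-, against -1.12, -1.50, -0.23 and 0.03 in aorta Eln+/+. The groups overlapped, and the difference of 1.03 ± 0.44 (adjusted p = 0.885) had the opposite sign to that in the valve. Cox6a1 was at -0.43 ± 0.28, Ndufv1 at -0.34 ± 0.34 and Atp5d, the delta subunit of the ATP synthase, at -0.35 ± 0.25 (adjusted p between 0.897 and 0.919).

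The sign of the aortic median rested on single arrays. It was 0.12 without aorta Eln+/+ 4, 0.02 without aorta Eln+/- 4, 0.01 without aorta Eln+/- 1 and -0.24 without aorta Eln+/- 2. Aorta Eln+/- 2 and aorta Eln+/+ 4 are the pair rich in brown adipocyte genes, 1 in each genotype, and without both the median was -0.06. The same pair was highest of the aorta in general adipocyte genes, at 1.73 and 2.52. Aorta Eln+/- 2 was also highest of the aorta in macrophage, T cell, erythroid and endothelial genes, at 0.98, 1.71, 2.60 and 0.24. It was lowest in smooth muscle genes, at -0.84 against 0.12 to 0.41 in the other aorta arrays.

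Subtracting the aortic genotype difference from that of the valve gave a value that passed for 0 of the 81 genes and 0 of all genes. Its median was 0.69 over the subunit genes and 0.04 over all genes, with 78 of 81 above 0 (54.8% of all genes) and 24 genes higher at an unadjusted p under 0.05 (4.88%) and 1 lower (3.61%). The genes of lowest p were Ndufb4 at -2.06 ± 0.62 (adjusted p = 0.619), Ndufb7 at 0.78 ± 0.29 and Ndufb10 at 0.77 ± 0.29 in complex I (adjusted p = 0.626 each). In complex V they included Atp5d at 1.04 ± 0.36 (adjusted p = 0.619) and Atp5g3 at 0.69 ± 0.25 (adjusted p = 0.624), and in complex IV Cox4i1 at 0.68 ± 0.29 (adjusted p = 0.635). Sdhb of complex II stood at 0.95 ± 0.44 and Uqcrc1 of complex III at 0.85 ± 0.40 (adjusted p = 0.642 and adjusted p = 0.649). The same quantity is the difference between the tissue effects of the genotypes, so the 43 genes past the threshold in Eln+/- mice and the 1 in Eln+/+ mice are not shown to differ.

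Across the aorta arrays the subunits split in how they went with the brown adipocyte and cardiac muscle genes. In the pair rich in brown adipocyte genes, aorta Eln+/- 2 and aorta Eln+/+ 4, the means were 0.30 and 0.41 for complex I, 0.43 and 0.69 for complex II, 0.35 and 0.59 for complex III and 0.04 and 0.08 for complex IV. For complex V they were 0.08 and 0.16. The other 6 aorta arrays had means between -0.50 and -0.26 for complex I, between -0.74 and -0.21 for complex II and between -0.73 and -0.22 for complex III. They lay between -0.90 and -0.35 for complex IV and between -0.69 and -0.26 for complex V, so the pair was highest in every complex.

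Among single genes, Cox7a1 at 0.63 and 0.60 and Cox8b at 1.26 and 1.69 were high in that pair, while Cox6a2 stood at -2.87 and -3.01. The cardiac means of that pair were -2.87 and -3.15. High values of Cox7a1 and Cox8b, although named as muscle forms, thus did not go with cardiac genes there. In the 4 aorta arrays outside both pairs Cox6a2 was at -2.88 and -2.57 (Eln+/- 1 and 4) and at -2.01 and -2.78 (Eln+/+ 1 and 3). Atp5g1, at -0.94 and -1.30, and Atp5g3, at -0.61 and -0.38, lay within the range of the other aorta arrays or at its low end. In the pair richer in cardiac genes, aorta Eln+/- 3 and aorta Eln+/+ 2, Cox6a2 was highest of the aorta at -1.01 and -0.21, and Atp5g1 stood at -0.87 and -0.04. In them the mean over all 81 genes was -0.31 and -0.31. The genes of these patterns were picked after their values were seen, and no test was made.

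**Figure D5:**
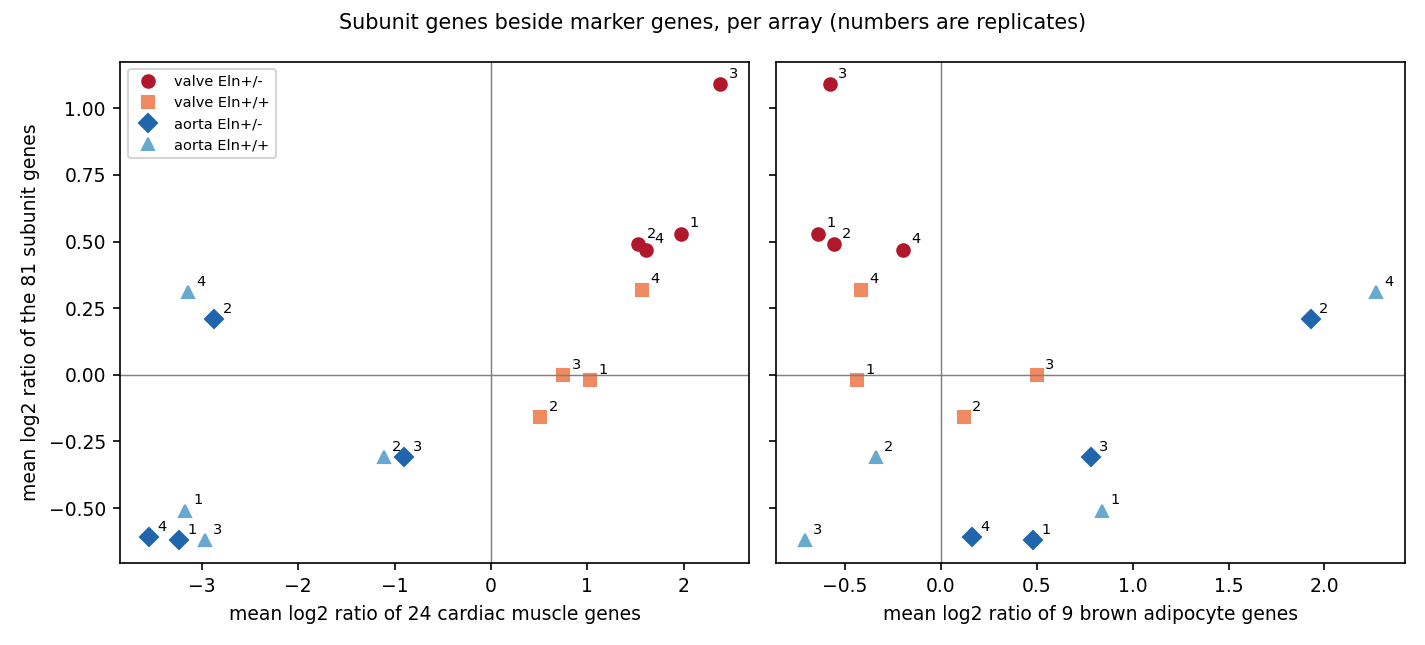
Mean log2 ratio of the 81 subunit genes (vertical axes) against the mean of 24 cardiac muscle genes (left) and of 9 brown adipocyte genes (right), with 1 point per array and replicate numbers beside the points. The valve arrays lie at the right in cardiac genes with Eln+/- 3 at the top, and aorta Eln+/- 2 and aorta Eln+/+ 4 lie at the right in brown adipocyte genes, above the other 6 aorta arrays.

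Without aorta Eln+/- 2 and aorta Eln+/+ 4, an alternative added after seeing the data, 65 of 81 genes and 118 of 164 probe sets rose in the valve of Eln+/- mice, with a median of 1.19, and 4.14% of all probe sets rose. In Eln+/+ mice the median was then 0.50, and no gene passed by its probe set of highest SD, with an adjusted p of 0.0927 for Cox6a2, while 1 probe set did. With the brown adipocyte mean as a covariate 64 genes and 110 probe sets rose in Eln+/- mice, with a median of 1.37, and 3.09% of all probe sets rose. That marker list includes Ppargc1a, which heart muscle expresses too.

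Other mitochondrial genes, taken from lists chosen with earlier results known, were read beside the subunits in the Eln+/- tissue comparison. Of all genes, 4.41% rose and 2.65% fell in this comparison. Of 21 subunits and carriers that the symbol rule does not reach, 6 rose and 0 fell, with a median of 0.56. They were Slc25a4, the adenine nucleotide carrier of heart, at 1.55 ± 0.20 (limma adjusted p = 0.000446), the phosphate carrier Slc25a3 at 1.12, the sarcomeric mitochondrial creatine kinase Ckmt2 at 5.63, the cytochrome c1 gene Cyc1 of complex III at 1.54, the acyl carrier Ndufab1 of complex I at 1.56, and Coq7, of ubiquinone synthesis, at 1.21. The size for Ckmt2 is uncertain (SE 1.06), since its aorta Eln+/- arrays stood at -5.66, -3.33, -0.71 and -6.64. The last is also the value of Xist in the Eln+/+ arrays without Xist signal, so -6.64 may be a floor of the deposited ratios. Of 17 citric acid cycle genes 3 rose, Mdh2 at 1.58, Idh2 at 1.32 and Dlat at 1.51, and the median was 0.79.

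The machinery that builds the complexes moved less in size. Of 42 assembly factors 1 rose, Uqcc2 of complex III at 0.97 ± 0.26 (limma adjusted p = 0.0427), with a median of 0.34, and of 76 mitochondrial ribosome genes 4 rose, led by Mrpl42 at 1.22, with a median of 0.28. These shares, set against 4.41% of all genes, were near the background. Of 18 regulators 3 rose, against the same 4.41%. They were Perm1, a muscle regulator of mitochondrial genes, at 1.97 ± 0.21, the coactivator Ppargc1a at 1.99 ± 0.44 and the nuclear receptor Esrrb at 1.29 ± 0.24. In Eln+/+ mice Perm1 was at 0.01 and Ppargc1a at 1.65 (adjusted p = 0.988 and adjusted p = 0.106). Of 15 glycolysis genes 9 rose, against 4.41% of all genes, with a median of 0.92. The muscle forms Pgam2 at 4.56 and Eno3 at 3.76 were at the top. The 1 mitochondrially encoded subunit measured, ND5 of complex I, was at 0.26 in Eln+/- mice, and in the valve genotype comparison at 0.08, and did not pass.

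In the valve genotype comparison no gene of these lists passed. Medians were 0.71 for the citric acid cycle, 0.37 for assembly factors, 0.37 for the mitochondrial ribosome, 0.50 for glycolysis and 0.33 for the regulators. The subunits had a median of 0.65. In the citric acid cycle 17 of 17 genes were above 0, against 55.0% of all genes. The highest of the regulators was Perm1, with 1.53, 1.32, 1.80 and 1.53 in valve Eln+/-, against 0.32, -0.02, 0.02 and -0.56 in valve Eln+/+. Its groups stood apart, and the difference of 1.61 ± 0.21 missed the threshold (limma adjusted p = 0.0539). Perm1 passed in the fits without aorta Eln+/+ 1, aorta Eln+/- 3 or valve Eln+/- 4, with adjusted p between 0.0334 and 0.046, and did not in the other 13 fits that left out 1 array. As a mean over its probe sets Perm1 was at 0.86 (limma adjusted p = 0.273). With only the valve arrays the adjusted p was 0.223, and with the replicate number as a block 0.401. It was 0.0335 with 0.1 added to the ratio, 0.043 with array weights and 0.0476 without _x_at and _s_at probe sets. It was 0.124 after quantile normalization, 0.0707 after centring and 0.142 without the 2 aorta arrays highest in brown adipocyte genes. With the cardiac covariate Perm1 was at 1.70 (limma adjusted p = 0.787). With the sex-linked covariate it was at 1.54 over all arrays and 1.57 over valve arrays alone (limma adjusted p = 0.367 and 0.285).

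Probe sets of 1 gene did not always point the same way. Of the 48 genes with several, 6 disagreed in sign for genotype in the valve, 19 in the aorta, 9 between tissues in Eln+/- mice and 12 in Eln+/+ mice. Sdha in Eln+/- mice had probe sets at 0.58, 0.69, -0.12 and -0.10. The mean over a gene's probe sets gave smaller medians, 0.83 for the tissue difference in Eln+/- mice with 46 genes past the threshold and 0.55 for genotype in the valve. Of the 164 probe sets, 4 had a median ratio below 1, that of Cox7b2 and 1 each of Cox8c, Atp5g2 and Cox7c.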

How the data were processed

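RNA of 16 specimens was amplified and hybridised to 1 array each, and RMA was applied, per the submitters' processing notes. The deposited table holds a linear ratio per probe set and array. That the authors divided each value by the probe set's median over the arrays was read from the values and is not stated: 39827 probe sets have a median of 1 (tolerance 1e-06). Array median ratios ran from 0.957 to 1. The scanner intensities were not used here, so signal over background is unknown and no dim probe set was removed.

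Ratios were converted to log2 and fitted for the 4 groups together with limma 3.58.1 (statmod 1.5.0, R 4.3.3), with 12 residual and 3.6 prior degrees of freedom. The fit was tested on simulated data. P-values were adjusted by Benjamini-Hochberg over 45037 probe sets, without 64 control probe sets, and the threshold was 0.05. The number of arrays limits the precision. Tables and figures used Python 3.11.15, pandas 2.3.3 and matplotlib 3.10.9. Members and lists were chosen with earlier results of these data known. Named genes were, for each comparison and complex, the 3 of lowest p and the 1 of highest p, with isoform families, core subunits as examples and genes of opposite sign. For other lists they were the 2 of lowest p and the regulators. Genes named beyond this rule were chosen after their values were seen. Alternatives were other normalizations, an addition of 0.1 to the ratio, array weights, covariates, a replicate block, other choices of probe set and leaving out each array. Those that use brown adipocyte genes, and the sex-linked covariate in valve arrays alone, were chosen after seeing the data. Replicate numbers were not used as pairs in the main fit. Promoter sequences are from RefSeq, GRCm38.p6.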

Additional observations from a re-analysis of the deposited data

Results flagged for a closer look

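In 12 of the 92 groups of 4 arrays examined, 1 array stood far from the other 3, by a gap that was most of the group's whole range. Chance flags about 1 in 20 such groups, and the groups here share arrays. Valve Eln+/- 3 stood apart in the mean of all 81 genes, at 1.09 against 0.47 to 0.53 in the other valve Eln+/- arrays. It did so in complex I at 1.14 (others 0.44 to 0.55), in complex III at 1.49 (0.68 to 0.72) and in complex IV at 0.76 (0.28 to 0.31). The same array stood apart in Atp5g1 at 2.04 (1.05 to 1.08), in Ndufb10 at 1.15 (0.72 to 0.74) and in Cox7a2 at 1.28 (0.46 to 0.56). It also had the highest cardiac mean, 2.38, and the lowest smooth muscle mean, -1.82, of the 16 arrays.

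Valve Eln+/+ 4, with the highest cardiac mean of its group, stood apart in Cox6a2 at 1.24 (0.18 to 0.25), in Cox7a1 at 1.23 (-0.08 to 0.05) and in Cox7a2 at 0.42 (-0.04 to 0.01). Aorta Eln+/- 3 stood apart in Cox6a2 at -1.01, against -2.88 to -2.57 in the other aorta Eln+/- arrays. Aorta Eln+/+ 4 stood apart in Ndufa5 at 0.15, against -0.94 to -0.78 in the other aorta Eln+/+ arrays.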

How the results depend on the processing

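With 4 arrays a group and ratios without levels, counts past the threshold moved more than medians did. For valve minus aorta in Eln+/- mice the count of genes ran from 14 to 62, and of probe sets from 19 to 114, when 1 array was left out, while the probe sets rising in the whole table ran from 897 to 1786 (1473 with all arrays). With only the arrays of the comparison it was 23 genes and 33 probe sets (1033 in the whole table), and array weights gave 103 probe sets (1762). Without the 2 aorta arrays highest in brown adipocyte genes it was 65 genes and 118 probe sets (1864), and with the brown adipocyte mean as a covariate 110 probe sets (1392) and a median of 1.37. In Eln+/+ mice leaving out 1 array gave 0 to 2 genes and 0 to 3 probe sets. There, only the arrays of the comparison gave 0 genes and 0 probe sets, both brown adipocyte alternatives 0 genes and 1 probe set, removal of probe sets ending in _x_at or _s_at 1 probe set, and quantile normalization, centring and array weights 2 genes each. The cause of these moves was not tested.

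The cardiac covariate took the valve genotype median to 0.09, with Sdhc at -0.07, Cox8b at -0.04, Atp5g2 at -0.24, Ndufb1 at -0.21 and ND5 at -0.04. The sex-linked covariate took Atp5g2 to -0.00 in the valve and Cox6a2 to 0.27 in the aorta. Between tissues in Eln+/- mice Atp5g2 was at -0.02 after quantile normalization and at -0.13 with array weights and without the 2 aorta arrays, Cox8a at 0.00 after centring, and Atp5c1 at -0.02 without _x_at and _s_at probe sets. In Eln+/+ mice Perm1 was at -0.08 as a mean over probe sets. Leaving out 1 array turned the sign of Cox6a2 (-0.77 to 0.27), Cox7a1 (-1.06 to 0.23) and Uqcrfs1 (-0.59 to 0.04) for genotype in the aorta. It did so between tissues for Atp5g2 (-0.13 to 0.19), Cox8a (-0.13 to 0.11) and Ndufb1 (-0.01 to 0.21) in Eln+/- mice, and for Perm1 (-0.14 to 0.18) and Cox8b (-0.21 to 1.30) in Eln+/+ mice.

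With the replicate number as a block, 47 genes and 70 probe sets (1278 in the whole table) rose between tissues in Eln+/- mice, and 0 genes and 1 probe set in Eln+/+ mice. Same-numbered valve and aorta arrays of 1 genotype correlated between -0.0396 and 0.0516 in their deviations from group means. Same-numbered Eln+/- and Eln+/+ arrays of 1 tissue, which come from different mice, correlated between -0.146 and 0.0711. Over so few arrays these values cannot decide whether a valve and an aorta came from 1 mouse. For Eln+/+ numbers 2 and 4, Xist differed between valve and aorta, so those arrays are not of 1 mouse.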
